A study of Mus musculus with 9 samples.

Results

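The cytosolic ribosomal protein genes measured here are 45 of the 12780 genes whose mean reached 1 RPKM (a read count scaled by transcript length and by library size) in mouse olfactory bulb. They were chosen by gene symbol, as rows named Rpl or Rps with a number, Rplp0, Rplp1, Rplp2 or Rpsa, and by that mean level over 9 libraries. Of the 27497 rows in the table, 79 carried such a name. Of these, 45 reached the level, with 27 counted as large subunit genes and 18 as small subunit genes. The subunit was taken from the symbol alone, so relatives such as Rpl7l1 are counted too. The other 34 rows lay under 1 RPKM. The members closest to the threshold from above were Rpl37a at 1.11 RPKM, Rpl36a at 1.30 and Rpl35 at 1.32, and the row closest from below was Rpl11 at 0.813.

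Polyadenylated RNA was sequenced from olfactory bulb tissue of 9 C57/BL6 adults in 3 groups of 3, with ages of 6 to 8 weeks or older. The clean air mice breathed air filtered through activated carbon and received no odorants. The 30 min mice were taken directly after 30 min with an odorant mixture. The 120 min mice were given the same 30 min exposure and then 90 min of clean air. All groups were whole bulbs of the same strain, so fewer cells of a type and less RNA per cell cannot be told apart. Depth recovered from the spacing of low values ranged from 7.13 to 29.8 M counted reads per library, and 3 reads on a transcript of 1000 nt then stood for 0.104 to 0.435 RPKM. That floor is higher for shorter transcripts and covers counting error only. Of 8 bulb markers, 7 were found and none was at 0 throughout. Their summed level was 1414 to 1636 RPKM, against 5.62 to 9.42 RPKM for 3 markers of cortical excitatory neurons.

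The small ribosomal subunit reads the messenger RNA, and the large subunit joins the amino acids and holds the tunnel through which the new protein leaves. Ribosomal protein mRNAs typically begin with a run of pyrimidines, the terminal oligopyrimidine (TOP) element, through which the mTOR kinase and the RNA-binding protein Larp1 control their translation. In mammals each protein usually comes from 1 active gene that has left many processed copies in the genome, so short reads of these mRNAs often match several places.

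The coding sequences show which stretches are not shared with transcripts of other annotated genes. Copies outside the annotation, the genes' own untranslated parts and the read length were not considered. Below are the first 150 coding bases of 5 genes from GENCODE M21, 5′ to 3′. Capitals mark bases that lie in at least 1 stretch of 32 bases found in no transcript of another annotated gene. Rpl8 was among the highest members, Rps21, Rps26 and Rpl34 were lower, and Rpl35 was near the threshold.
Rpl8 (chromosome 15): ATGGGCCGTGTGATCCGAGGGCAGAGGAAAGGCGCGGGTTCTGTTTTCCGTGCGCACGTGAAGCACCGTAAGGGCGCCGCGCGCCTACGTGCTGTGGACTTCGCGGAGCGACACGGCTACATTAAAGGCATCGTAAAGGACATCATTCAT
Rps21 (chromosome 2): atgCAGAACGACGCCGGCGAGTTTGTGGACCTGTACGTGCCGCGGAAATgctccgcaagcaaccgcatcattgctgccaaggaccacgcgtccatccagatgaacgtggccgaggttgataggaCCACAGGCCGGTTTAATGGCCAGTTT
Rps26 (chromosome 10): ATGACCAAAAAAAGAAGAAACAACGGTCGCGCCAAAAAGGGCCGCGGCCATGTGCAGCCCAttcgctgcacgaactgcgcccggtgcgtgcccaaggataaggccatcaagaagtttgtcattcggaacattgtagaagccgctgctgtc
Rpl34 (chromosome 3): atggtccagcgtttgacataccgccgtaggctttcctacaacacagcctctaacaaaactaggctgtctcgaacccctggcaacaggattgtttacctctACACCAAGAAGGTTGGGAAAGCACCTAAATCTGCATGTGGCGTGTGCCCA
Rpl35 (chromosome 2): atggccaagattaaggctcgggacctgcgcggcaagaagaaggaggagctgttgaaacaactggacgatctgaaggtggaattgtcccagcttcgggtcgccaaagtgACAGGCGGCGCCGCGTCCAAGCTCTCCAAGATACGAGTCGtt
All 150 bases shown were in capitals for Rpl8, 72 for Rps21, 61 for Rps26, 50 for Rpl34 and 40 for Rpl35.

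The start of transcription was read from RefSeq promoters (GRCm38.p6), which matched 32 of the 45 members by symbol. The TOP search took a C at the annotated start followed directly by at least 4 bases that were each C or T, on the gene's own strand. It was met by 7 of the 32 matched members (21.9%), against 3.01% of 27025 genes in the promoter table, and no match says only that these letters are not at the annotated start. The 7 windows below run from 10 bases before the start through 20 bases from it, and capitals mark the pyrimidine run.
Rpl14 at chr9:120571507-120571536, plus strand: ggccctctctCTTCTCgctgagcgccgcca
Rpl35 at chr2:39005112-39005141, minus strand: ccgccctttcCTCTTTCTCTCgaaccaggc
Rpl35a at chr16:33056472-33056501, plus strand: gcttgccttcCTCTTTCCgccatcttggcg
Rplp2 at chr7:141447641-141447670, plus strand: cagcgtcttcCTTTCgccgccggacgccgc
Rps15a at chr7:118116128-118116157, minus strand: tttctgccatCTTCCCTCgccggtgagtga
Rps18 at chr17:33955646-33955675, minus strand: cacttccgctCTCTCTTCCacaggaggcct
Rps21 at chr2:180257369-180257398, plus strand: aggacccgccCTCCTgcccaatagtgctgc

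Listed levels of ribosomal protein genes ran from 1.11 to 554 RPKM, a 499-fold span among proteins that the ribosome mostly holds in equal numbers. The member with the highest mean was Rps9, which lines the entry of the mRNA channel. Its values were 767, 434 and 684 RPKM in clean air mice 1, 2 and 3, 557, 390 and 604 in the 30 min mice, and 443, 458 and 653 in the 120 min mice. All 3 groups overlapped. Rps15, a head protein of the small subunit, averaged 362 RPKM. Rps14 averaged 250 RPKM, and its loss of 1 copy is known from the human 5q- syndrome. Rps3, which contacts incoming mRNA, averaged 181 RPKM.

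Among large subunit genes Rpl8, whose protein lies at the peptidyl transferase centre, had the highest mean, 431 RPKM. It measured 543, 370 and 588 RPKM in clean air, 453, 320 and 396 at 30 min, and 466, 314 and 428 at 120 min. Mouse 2 was the lowest of its group each time. Rpl13a, known in human cells for a role in translational control after interferon gamma, averaged 226 RPKM under an identifier with no entry in GENCODE M21. The identifier that M21 names Rpl13a was labelled Flt3l in the table and averaged 3.52 RPKM, so which gene the higher value stands for is uncertain. Rpl4, a protein of the exit tunnel wall, averaged 196 RPKM, and Rpl26, found near the tunnel's end, 81.3 RPKM. The acidic stalk proteins, which recruit elongation factors to the large subunit, were represented by Rplp1 at 173 RPKM and Rplp2 at 76.2 RPKM. The gene for their anchor, Rplp0, stood in the table under its older name Arbp, outside the name rule, at a mean of 108 RPKM (range 80.8 to 135).

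The lowest large subunit members were Rpl37a, Rpl36a, Rpl35 and Rpl39, with Rpl39, another tunnel protein, at 2.16 RPKM. The lowest small subunit members were higher than these, with Rps27l at 4.37, Rps24 at 9.85, Rps18 at 10.1 and Rps15a at 10.6 RPKM. Of the large subunit genes 4 of 27 averaged at least 100 RPKM and 7 were under 10, whereas of the small subunit genes 8 of 18 averaged at least 100 and 2 were under 10.

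Over all 45 members, the median large subunit gene lay below the median small subunit gene in all 9 mice. The medians of large and small subunit genes were 38.8 and 47.5 RPKM in clean air mouse 1, 21.5 and 36.1 in mouse 2, and 15.6 and 28.3 in mouse 3. At 30 min they were 33.9 and 39.2 RPKM in mouse 1, 19.1 and 32.5 in mouse 2, and 29.1 and 29.3 in mouse 3. At 120 min they were 30.4 and 33.6, 21.6 and 31.0, and 33.6 and 60 RPKM. Taken on the log2 scale, the large minus small difference was -0.15, -0.73 and -0.83 in clean air, -0.19, -0.75 and -0.01 at 30 min, and -0.08, -0.51 and -0.68 at 120 min. The difference was close to 0 in 30 min mouse 3 and largest in clean air mouse 3, and the groups overlapped. Summed over genes, the large subunit held 0.620 to 0.830 of the small subunit's RPKM, although it has more genes. The members together made up 0.928% to 1.37% of all RPKM in a library.

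**Figure D1:**
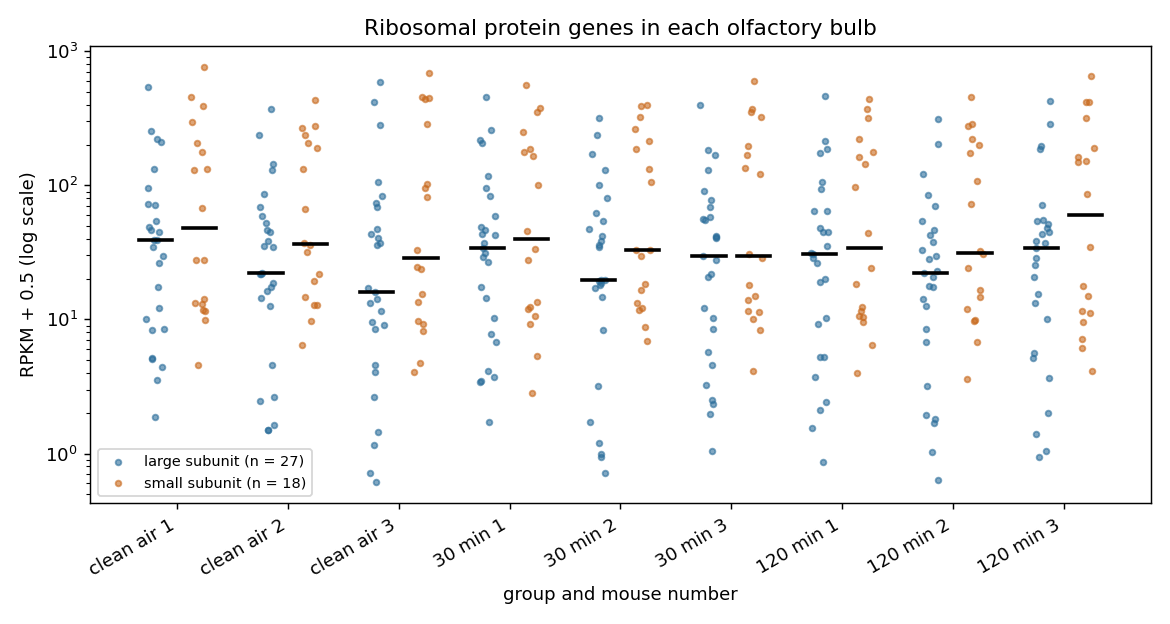
RPKM + 0.5 (log axis) of the 27 large subunit genes (blue) and 18 small subunit genes (orange) in each of the 9 mice, with a point per gene and a black bar at the median. The large subunit median lies below the small subunit median in every mouse, and within each subunit the genes spread far more widely than the mice do.

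The size of this subunit difference, and in some mice its direction, depended on which members entered. With only the 38 members averaging 5 RPKM or more, the mean log2 difference over mice went from -0.44 to -0.09. In some mice the large subunit median then lay above the small one, as in 30 min mouse 3 (41.7 and 30.1 RPKM). In others it lay below, as in 120 min mouse 3 (42.9 and 85.8 RPKM). Among members annotated by GENCODE under the same name, the median share of coding 32-base words found in transcripts of other genes was 90.8% for the 26 large subunit genes and 82.8% for the 18 small subunit genes. Without members at 90% or more, a choice made after seeing the data, the mean log2 difference was -1.88. The 13 remaining annotated large subunit genes had a median of 46.7 RPKM and the 10 small subunit genes 178 RPKM. The part of shared sequence in the subunit difference was not tested.

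Across all 75 annotated rows with a ribosomal protein name, listed level fell as shared sequence rose (Spearman's rho -0.83). Across the 44 annotated members rho was -0.73. These are descriptions across genes of the same libraries, and genes are not independent replicates. The 11 annotated members at 100 RPKM or more shared 2.58% to 80.3% of their coding words (median 65.8%). The 9 members between 1 and 10 RPKM had a median of 97.3%. Rpl8 shared 10.9%, Rps3 18.1%, Rpl4 37.6% and Rps9 54.8%.

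Of the 34 rows under 1 RPKM, 25 were listed at 0 in all 9 mice, 16 of the large and 9 of the small subunit. They include Rps6, the substrate of S6 kinase, and Rpl5, which with Rpl11 carries 5S ribosomal RNA and can bind Mdm2. Rpl11 was listed at 0.813 RPKM, and Rpsa, also known as the laminin receptor precursor, at 0 in 8 of 9 mice. Since every cell uses these proteins, the zeros are given only as listed values. The row at 0 labelled Rpl24 has an identifier that GENCODE M21 names Zbtb11. Rpl29 had rows at 2.29, 0.161 and 0 RPKM, and only the member row has an entry in M21. Of the 23 annotated rows at 0, 22 shared every coding word with another gene's transcripts, and the other, Rps10, shared 97.2%. Conversely, of 28 rows with wholly shared coding sequence, 22 were at 0 and 3 were members, namely Rpl13, Rpl39 and Rpl36a. The counting of reads with several matches is not given in the sources used, and its part in these levels was not tested.

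**Figure D2:**
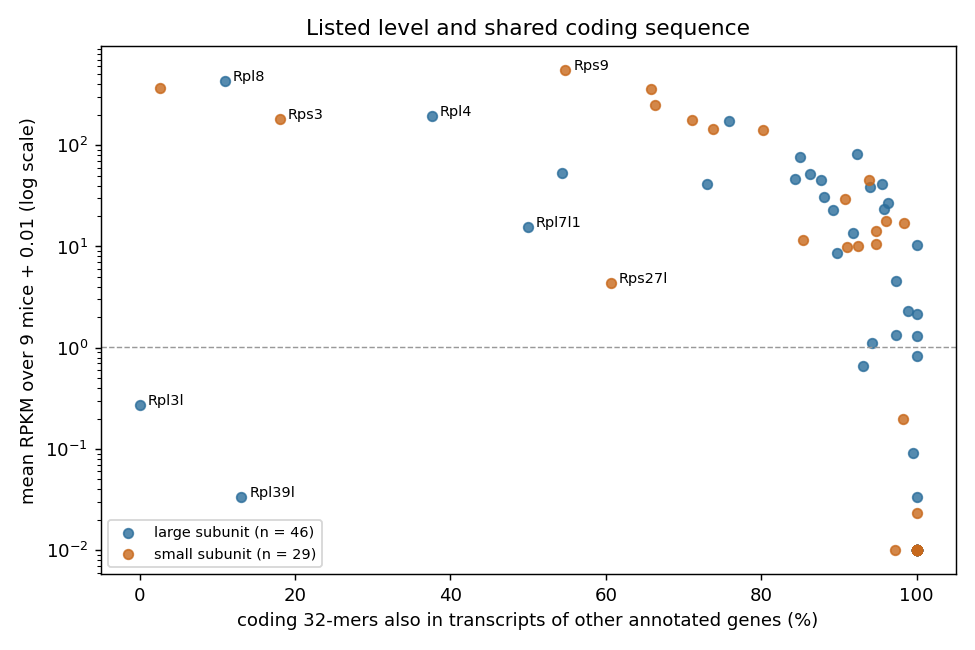
Mean RPKM + 0.01 over 9 mice (log axis) against the percentage of coding 32-base words also found in transcripts of other annotated genes, for 46 large subunit rows (blue) and 29 small subunit rows (orange). The dashed line marks 1 RPKM. Rows at 0 sit at the bottom right, at or near complete sharing, while Rpl3l and Rpl39l are low with 0% and 13.1% shared.

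Several ribosomal proteins have relatives with tissue-restricted expression. Rpl3l, the striated muscle relative of Rpl3, was listed at 0.263 RPKM and Rpl3 itself at 4.58 RPKM. Rpl3l shared no coding word with other genes, while Rpl3 shared 97.3%. Rpl39l, the testis-enriched relative of Rpl39, was at 0 in 8 of 9 mice with 13.1% shared. Rpl22l1, the relative of Rpl22, averaged 0.651 RPKM with 93.1% shared, against 53.8 RPKM for Rpl22 with 54.4% shared. Rpl7l1, a nucleolar relative of Rpl7, averaged 15.7 RPKM with 49.9% shared, and Rpl7 30.9 RPKM with 88.1% shared. The part of shared sequence in the differences between relatives was not tested. Rps27l, known in human cells as a p53 target, averaged 4.37 RPKM with 60.6% shared. Rps3a averaged 14.1 RPKM and, despite its name, is no close relative of Rps3. The row of Rpl10l was listed at 0, as was that of Rpl10.

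Odorant exposure gave no call among the ribosomal protein genes. By limma on log2(RPKM + 0.5), with Benjamini-Hochberg adjustment over all 12780 genes, 0 of 45 members passed an adjusted p of 0.05 at 30 min against clean air, where 0.141% of all genes did. The count was also 0 at 120 min against clean air (background 0.0861%), at 120 min against 30 min (0.0782%) and for both exposed groups against clean air (0.125%). The lowest adjusted p of a member in these 4 comparisons was 0.82, 0.55, 1.00 and 0.54. At an unadjusted limma p under 0.05 the members numbered 1 at 30 min (5.92% of all genes), 0 at 120 min against clean air (9.57%), 4 at 120 min against 30 min (3.36%) and 0 for both exposed groups (9.62%). Those 4, which are 8.89% of members, were all lower at 120 min. The p-values measure the spread between mice of a group, which includes differences that went with the mouse numbers in the sample titles. With those numbers as a block in limma, 0 members were called either. At 120 min against clean air 10 members then had an unadjusted limma p under 0.05, all lower, beside 1910 of all 12780 genes. The comparisons share the clean air or 30 min mice.

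The median log2 difference of members at 30 min against clean air was 0.02, with 25 of 45 higher, and the median of all genes was 0.08. At 120 min against clean air the members' median was -0.20, with 14 of 45 higher, beside 0.03 for all genes. Large subunit genes had a median of -0.26 and small subunit genes -0.12 there. From 30 min to 120 min the members' median was -0.15, with 10 of 45 higher, and that of all genes -0.03. The median standard error of a single member was 0.36.

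Rpl34, a large subunit protein, had the largest upward difference at 30 min. It measured 48.2, 44.5 and 43.0 RPKM in clean air, 45.7, 61.7 and 90.3 at 30 min, and 47.8, 45.6 and 42.9 at 120 min. The highest values were 30 min mice 3 and 2, and mouse 1 lay within the clean air range. The log2 difference at 30 min was 0.48 ± 0.22 (SE, limma adjusted p 0.82). Without single mice it ranged from 0.23 to 0.72. At 120 min its mean, 45.4 ± 2.49 RPKM (SD, n = 3), was near that of clean air, 45.2 ± 2.67.

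Rps18, a head protein that contacts the large subunit, measured 11.3, 9.32 and 7.73 RPKM in clean air, 13.1, 11.6 and 13.6 at 30 min, and 9, 6.34 and 9.01 at 120 min. All 30 min mice lay above all clean air and all 120 min mice. It was the only member with such a gap upward at 30 min, where 7.29% of all genes had one, and no member had a gap downward (4.08% of all genes). Its log2 difference was 0.43 ± 0.20 at 30 min against clean air and -0.63 ± 0.20 at 120 min against 30 min (limma adjusted p 0.82 and 1.00). With 92.5% of its coding words shared with other transcripts, the level of Rps18 is uncertain.

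At 120 min against clean air no member had groups apart upward (7.86% of all genes), and 2 of 45 had groups apart downward (5.27% of all genes), namely Rpl14 and Rps27l. Rpl14 measured 44.4, 58.6 and 46.8 RPKM in clean air, 43.0, 54.2 and 57.6 at 30 min, and 34.7, 37.3 and 44.1 at 120 min. The highest 120 min mouse was just under the lowest clean air mouse. Rps27l measured 4.09, 5.94 and 4.22 RPKM in clean air, 4.87, 6.46 and 3.62 at 30 min, and 3.49, 3.08 and 3.60 at 120 min. Between 120 min and 30 min the groups were apart upward for 0 members (4.99% of all genes) and downward for 3 of 45 (5.66% of all genes), Rps15a, Rps18 and Rps27l. Rps15a measured 11.8, 12.8 and 10.8 RPKM at 30 min and 9.87, 9.17 and 5.63 at 120 min.

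The other differences at the ends of the range did not pass the adjusted threshold either. At 30 min against clean air Rpl26 differed by 0.48 ± 0.37, Rpl18 by -0.65 ± 0.42, Rpl30 by -0.49 ± 0.30 and Rps7 by -0.42 ± 0.38 on the log2 scale (SE). At 120 min against clean air Rpl37 differed by 0.67 ± 0.65, Rpl6 by 0.49 ± 0.25 and Rpl23 by 0.32 ± 0.37. Rpl18 differed by -0.69 ± 0.42 there, Rps7 by -0.62 ± 0.38 and Rpl29 by -0.54 ± 0.40. At 120 min against 30 min Rps20 differed by 0.49 ± 0.37, Rpl37 by 0.48 ± 0.65 and Rps19, mutated in human Diamond-Blackfan anaemia, by 0.30 ± 0.23. Rpl36a differed by -0.59 ± 0.65 and Rps15a by -0.53 ± 0.24. Leaving out single mice moved several of these widely: Rpl26 at 30 min ranged from 0.05 to 0.73, Rpl37 at 120 min against clean air from 0.03 to 1.26 and Rpl23 from 0.08 to 0.67. Against 30 min, Rps20 ranged from 0.10 to 0.80 and Rpl36a from -1.07 to -0.11. Rpl37 varied within every group, at 72.1, 34.1 and 12.7 RPKM in clean air, 58.7, 14.3 and 55.9 at 30 min, and 63.7, 29.1 and 70.5 at 120 min. Without 30 min mouse 2, its difference of 120 min from 30 min became -0.17. Without clean air mouse 3, its difference of both exposed groups from clean air went from 0.43 to -0.21, and that of Rpl26 from 0.31 to -0.12.

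**Figure D3:**
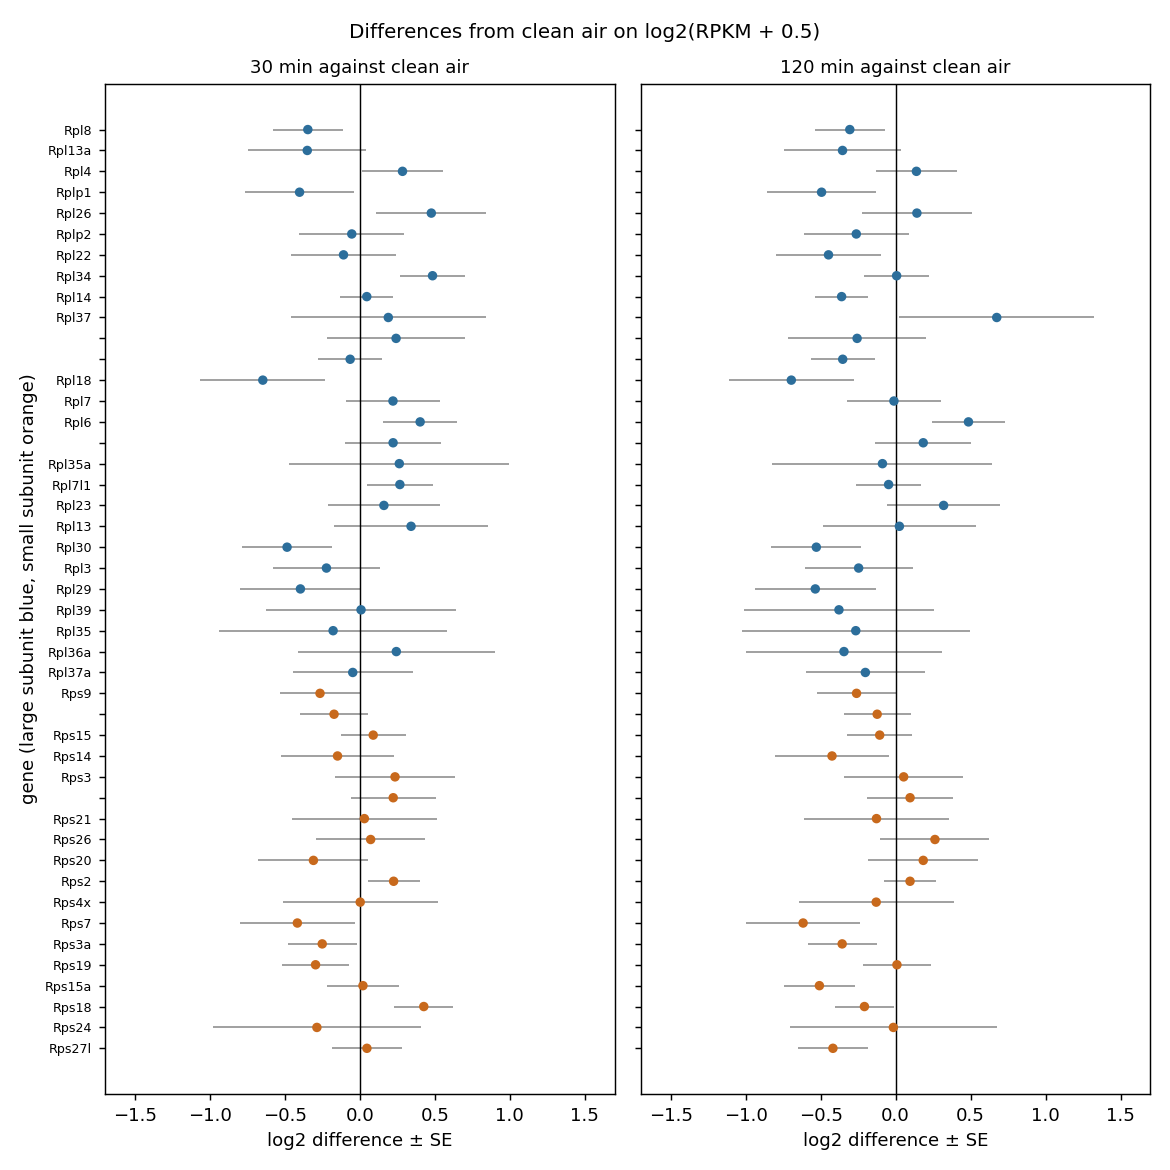
Log2 difference ± SE (limma) of each of the 45 members from clean air at 30 min (left) and 120 min (right), large subunit genes in blue above and small subunit genes in orange below, each ordered by mean RPKM, with names for genes named in the text. The points lie between -0.69 and 0.67, and none passed an adjusted p of 0.05.

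The ribosomal protein genes varied widely between mice of the same group. The residual SD within groups on log2(RPKM + 0.5) had a median of 0.53 over the 45 members, beside 0.28 over all genes tested. Of the members, 23 of 45 (51.1%) lay above 0.53, the level that 10% of all genes exceed. Other genes with transcripts up to 1000 nt had a median of 0.43 (855 genes). These are descriptions without a test. Large subunit genes had a median of 0.53 and small subunit genes 0.39. The 21 annotated members with at least 90% shared coding sequence had a median of 0.57 and the 23 with less 0.41.

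The 3 steadiest members were Rps2, a protein of the mRNA entry, with a residual SD of 0.19, Rpl14 with 0.20 and Rps18 with 0.23. Rps2 measured 27.5, 31.1 and 23.4 RPKM in clean air, 33.0, 32.6 and 30.1 at 30 min, and 23.9, 30.1 and 34.3 at 120 min. Its highest value was 1.46 times its lowest, although 90.8% of its coding words are shared. The median member had a highest value 2.70 times its lowest.

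The 3 most variable members were Rpl35a with a residual SD of 1.18, Rpl35 with 1.18 and Rps24 with 1.11. Rpl35a, another Diamond-Blackfan anaemia gene in humans, measured 46.0, 12.1 and 9.01 RPKM in clean air, 41.8, 18.3 and 11.7 at 30 min, and 44.2, 6.26 and 15.0 at 120 min. Mouse 1 of each group was above 40 RPKM and all 6 other mice were under 20, whatever the exposure. Rpl35, which sits at the tunnel exit, measured 3.92, 1.00 and 0.11 RPKM in clean air, 3.23, 0.22 and 0.54 at 30 min, and 1.93, 0.52 and 0.44 at 120 min. Mouse 1 was again the highest of each group, but several of the other values lie near the level of a few reads. Rps24 measured 9.46, 19.0 and 3.55 RPKM in clean air, 2.33, 17.8 and 7.86 at 30 min, and 5.91, 16.0 and 6.70 at 120 min. Here mouse 2 was the highest of each group.

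**Figure D4:**
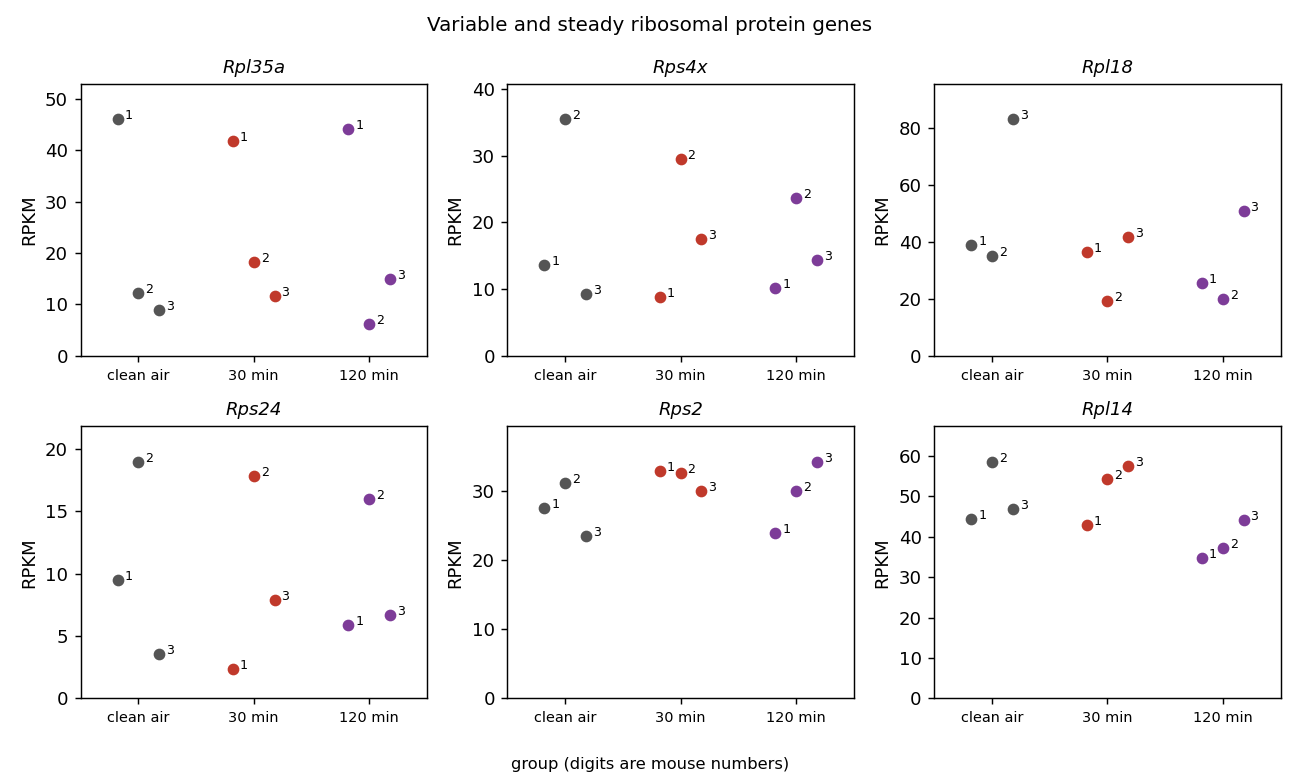
RPKM of 6 members in the 9 mice, by group, with the mouse number of the sample title beside each point and axes starting at 0. Mouse 1 stands high in each group for Rpl35a, mouse 2 for Rps4x and Rps24, and mouse 3 for Rpl18, while Rps2 and Rpl14 show no such gap.

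Mice with the same number in their titles, 1 from each group, thus stood together for several members. The labels do not say what the numbers mark, and the library codes in the sample descriptions use other numbers for mouse 3 of every group and for mouse 2 of both exposed groups. Mice 1, 2 and 3 have the codes 1, 3 and 4 in both exposed groups and 1, 2 and 5 in clean air. For some of the 45 members, the 3 mice of a number all lay above or all below the other 6. The counts were made after the pattern was seen, and the share of all genes tested stands in brackets beside each. Mice numbered 1 were all above for 6 members (4.09% of all genes), Rpl35a, Rpl35, Rpl36a, Rpl39, Rplp2 and Rps3, and all below for 0 (2.29%). Rps3 measured 296, 250 and 220 RPKM in the mice numbered 1 and 103 to 197 RPKM in the others. Mice numbered 2 were all above for 5 members (7.64% of all genes), among them Rps4x, Rps24, Rps26 and Rpl13, and all below for 4 (5.34%), among them Rpl8, Rplp1 and Rps21. Rps4x, the X-linked gene whose human counterpart has a Y-linked homologue, measured 35.5, 29.5 and 23.7 RPKM in the mice numbered 2 and 8.77 to 17.5 in the others. Mice numbered 3 were all above for 3 members (1.61% of all genes), among them Rpl18 and Rps14, and all below for 2 (2.46%), Rpl22 and Rpl26. Rpl18 measured 83.1, 41.7 and 50.8 RPKM in the mice numbered 3 and 19.1 to 39.0 in the others. Rps26, Rpl13 and Rps21 were named after their values were seen.

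Depth moved with the mouse numbers in part. The libraries of mice 1 held 10.5, 8.79 and 9.83 M counted reads, those of mice 2 held 22.1, 28.7 and 24.1 M, and those of mice 3 held 29.8, 17.4 and 7.13 M. The part of depth, or of whatever the numbers mark, in these patterns was not tested.

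**Figure D5:**
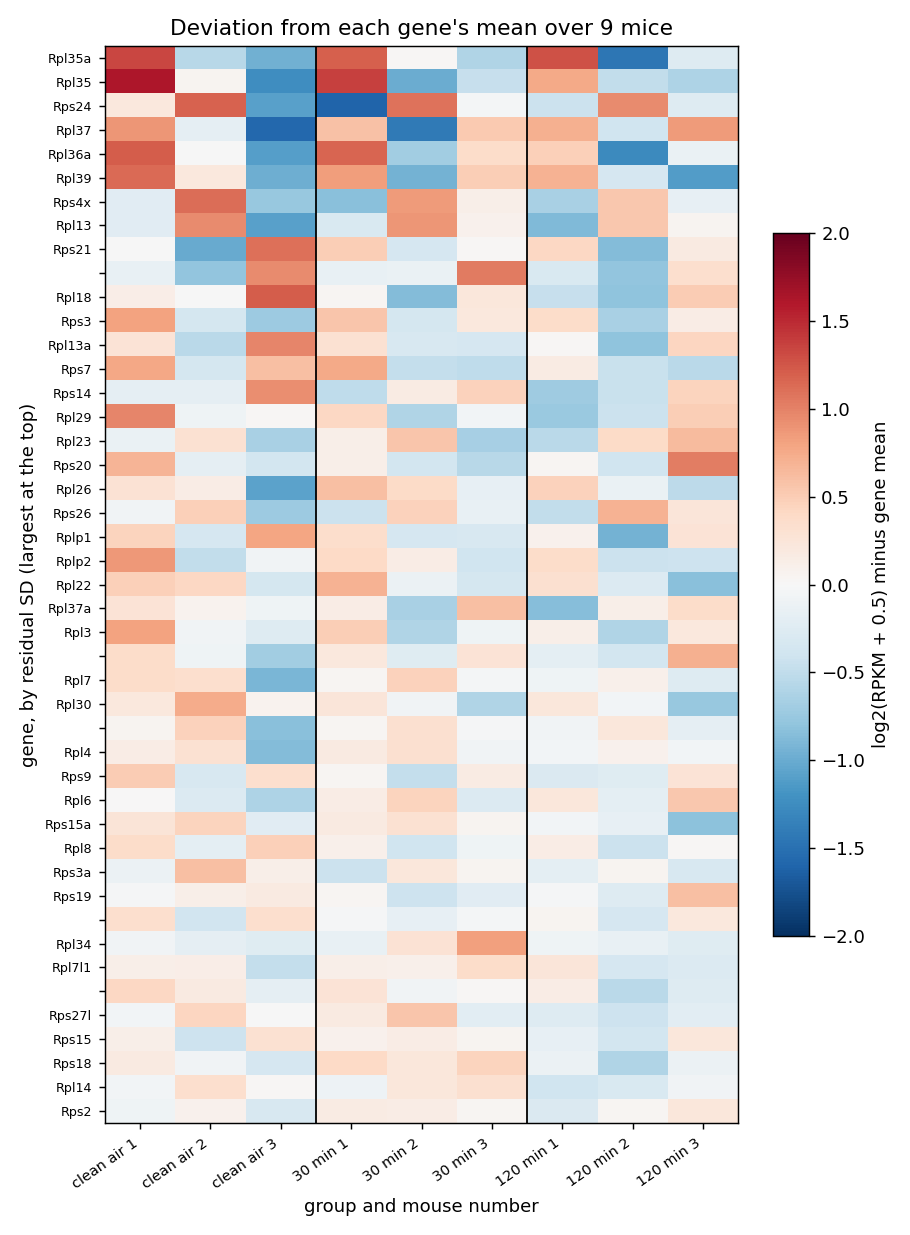
Deviation of log2(RPKM + 0.5) from each gene's mean over 9 mice, for the 45 members ordered by residual SD and named where the text names them, with red above and blue below the mean and the colour range ending at 2 in either direction. Columns with the same mouse number resemble each other across groups in the upper rows, while the lower rows stay near 0.

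The members did not all move together within a mouse. The median deviation over members was 0.26, -0.01 and -0.26 in clean air mice 1 to 3, 0.17, -0.07 and -0.02 at 30 min, and -0.05, -0.34 and 0.02 at 120 min. The highest were clean air mouse 1, with 32 of 45 members above their own mean, and 30 min mouse 1, with 35 of 45. The lowest was 120 min mouse 2, with 11 of 45. Over all genes tested the medians lay between -0.10 and 0.04, and over the other short-transcript genes between -0.11 and 0.14. The libraries of a group overlapped with those of the other groups in this measure.

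Genes around the ribosome gave no call in the lists below. Of 14 other factors with TOP mRNAs, 11 were tested and 0 called by limma in any comparison, with 0 at an unadjusted p under 0.05. Their median log2 difference was 0.15 at 30 min and -0.02 at 120 min against clean air. Eef2, the elongation factor that moves the ribosome along the mRNA, averaged 626 RPKM. Of the 20 ribosome biogenesis genes, 0 were called at 30 min or 120 min against clean air and 1 was higher at an unadjusted p under 0.05 each time. Of 12 regulators of ribosomal protein mRNA translation, including Mtor and Larp1, 0 were called, and 1 at 30 min and 2 at 120 min were higher at that unadjusted p. For both exposed groups against clean air 2 regulators were higher and 1 lower. Over all genes tested the share at that p, in either direction, was 5.92% at 30 min, 9.57% at 120 min and 9.62% for both exposed groups. Of 72 mitochondrial ribosomal protein genes tested, 0 were called, and at 120 min against clean air 4 were higher and 5 lower at an unadjusted p under 0.05. At 120 min against 30 min 0 of them were higher and 4 lower at that p, beside 3.36% of all genes. The median residual SD of the mitochondrial ribosomal protein genes was 0.27, that of the other TOP factors 0.41. Rack1, a scaffold protein of the small subunit that stood in the table as Gnb2l1, averaged 333 RPKM, while Fau, which encodes a ribosomal protein fused to a ubiquitin-like sequence, was listed at 0.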

How the data were processed

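Extraction used Trizol, a DNase I step, column purification and oligo-dT selection, per the labels' protocols, and both ends of fragments were sequenced. Bowtie and the mouse build mm9 were used, per the submitters' processing notes; the Bowtie version, the gene models and the counting rule are not stated there. The authors deposited RPKM values, used here unscaled. For genes averaging 1 RPKM or more, limma 3.58.1 (R 4.3.3) was fitted to log2(RPKM + 0.5) (trend, 1 fit to 9 mice, two-sided, Benjamini-Hochberg over 12780 genes); log2 values were computed from the deposited RPKM. The fit was tested on simulated data. A log2 difference with this pseudocount understates changes of low genes. Named genes were the 5 highest and 4 lowest of each subunit, the stalk genes, relatives, Rps19, Rpl5, Rpl11, Rps6 and Rpsa, and the 3 extremes per comparison and of residual SD; some genes are not reported here. Members and lists were chosen with earlier results of these data known. GENCODE M21 gave names, transcripts, chromosomes and the exon and coding positions by which coding sequences were cut out. Shared words used 32 bases. Depth was recovered from annotated RNAs under 200 nt, taking lengths 34 nt shorter: 84.2% to 92.5% of values were then whole multiples of 1 read within 0.1, against 35.6% to 42.8% at full length. Alternatives were pseudocounts of 0.1 and 1, no filter or one at 5 RPKM, median and quantile scaling, separate fits, a mouse-number block and leaving out each mouse.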

Additional observations from a re-analysis of the deposited data

How the results depend on the processing

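The count of 0 called members held under every alternative run, in all 4 comparisons. Leaving out each mouse gave 0 to 0 called members, with a lowest adjusted p by limma of 0.33. Over the same omissions the large minus small log2 difference ranged from -0.49 to -0.39, the median residual SD from 0.47 to 0.54 and the range of the members' median deviation from 0.48 to 0.65. Without members at 90% or more shared coding sequence (added after seeing the data) the subunit difference was -1.88 and the median residual SD 0.42. With the filter at 5 RPKM the subunit difference was -0.09, its direction differed between mice, and the median residual SD was 0.51. Of the named differences, 3 changed sign without 1 mouse. Rpl26 in both exposed groups was -0.12 without clean air mouse 3 and ranged from -0.12 to 0.56 over omissions. Rpl37 in both exposed groups was -0.21 without that mouse (range -0.21 to 1.02), and its difference of 120 min from 30 min was -0.17 without 30 min mouse 2 (range -0.17 to 0.88).

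Samples with the same number were correlated in their deviations from group means by 0.08 to 0.44 over all tested genes, with 7 of 9 pairs above 0.1. The criterion for pairing the mice asked for every such pair above 0.1, so the block was kept as an alternative. The main fit therefore leaves differences between mouse numbers in its error. Pairs with different numbers gave -0.38 to 0.09. Over members the same-number correlations were 0.23 to 0.77. Each of the 9 mice correlated best with a mouse of its own number, a hint from the data and not the design. With the mouse number as a replicate block, 0 members were called in each comparison, the lowest adjusted p was 0.18, and 6, 10, 4 and 5 members had an unadjusted p under 0.05 (1, 0, 4 and 0 without it). Over all 12780 genes that unadjusted count with the block was 1396, 1910, 854 and 1946, against 756, 1223, 430 and 1229 without it. Over all genes, 22, 11, 10 and 20 were called with the block, against 18, 11, 10 and 16 without it. The alternative that drops members by uniqueness in the genome was not run, since no genome was used here. Depth limits the lowest members, several of whose values are at or near the floor of 3 reads.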
